A study of Mus musculus with 4 samples.

Results

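The nuclei described here were Slc17a6+ Tcf7l2+ neurons found in the mouse brain libraries labelled striatum, 875 of the 78728 nuclei in the series. That label names the library and not the origin of each nucleus, and the borders of the dissection are not given in the sources used here. A nucleus was taken when it held at least 1 UMI (1 counted transcript molecule) of Slc17a6, at least 3 UMIs of Tcf7l2 and at least 1 UMI of the neuronal gene Rbfox3, no UMI of Gad1 or Gad2, and at most 1 UMI in sum of Mog, Mag, Aqp4, Csf1r and Cldn5, which mark oligodendrocytes, astrocytes, microglia and endothelium. These 10 genes chose the nuclei, so their levels are descriptions and support nothing. Of the 875 nuclei, 450 came from AAV-CTRL and 425 from AAV-VEGF-C mice. The working name for them was thalamic neurons, and it is kept here for only a portion of them. In clusters that held 545 nuclei (62.3%) the summed level of thalamic relay genes was high. In clusters that held 300 nuclei it was near that of Slc17a6 neurons that lacked Tcf7l2. Relay genes were not kept out of the clustering, so this split is a description and tests nothing. The other 30 nuclei carried astrocyte transcripts beside the relay gene Synpo2.

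The study used single-nucleus RNA sequencing to ask what VEGF-C overexpression does to brain cells before any injury. Male C57BL/6J mice received AAV9 into the cisterna magna at 4 weeks of age and their brains were taken at 8 weeks. AAV-VEGF-C carried full-length mouse VEGF-C, and AAV-CTRL carried Ig domains of soluble VEGFR3 that do not bind VEGF-C, so the control mice also had the virus and a secreted protein. Tissue of 5 brains was pooled per AAV group, and each pool gave 1 library labelled cortex and 1 labelled striatum. The mice of a pool cannot be told apart, and with 1 library per group no difference between AAV groups has a replicate check. All intervals below are 95% intervals that cover counting error only.

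Thalamic relay neurons are glutamatergic cells that pass sensory, motor and subcortical signals on to the cortex. They load glutamate into vesicles through VGLUT2, the product of Slc17a6. Tcf7l2, a DNA-binding partner of beta-catenin in Wnt signalling, is retained in thalamic and habenular neurons into adulthood and helps to keep their identity, and it is also used by maturing oligodendrocytes. Relay neurons switch between burst and tonic firing through T-type calcium channels and HCN channels.

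The libraries labelled striatum, called striatal libraries here, held 23724 nuclei with 77253372 UMIs (AAV-CTRL) and 17466 nuclei with 67773329 UMIs (AAV-VEGF-C). Striatal projection neuron genes were detected across each library, with Ppp1r1b at 18.1 and 18.1 UMIs per 1000000 UMIs (CPM) and the dopamine receptor Drd1 at 11.1 and 9.97 CPM. Barcodes shared between libraries numbered 115 in all and 0 among the 875 nuclei. A doublet caller marked 7.95% and 4.31% of all nuclei, and 22 (4.89%) and 10 (2.35%) of the 875. Values are given below in the order AAV-CTRL, AAV-VEGF-C unless stated.

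The Slc17a6+ Tcf7l2+ nuclei made up 450 of 23724 nuclei (1.90%, 1.73 to 2.08) in the AAV-CTRL striatal library and 425 of 17466 (2.43%, 2.21 to 2.67) in the AAV-VEGF-C one. The share was thus higher in the AAV-VEGF-C library, with a log2 ratio of 0.36 (0.16 to 0.55). The libraries also differed in depth, since the median member held 6818 and 8347 UMIs, which moves a rule that counts UMIs, and the part of depth or dissection in the difference was not tested beyond the thinned value. When each nucleus was first thinned to 1500 UMIs only 30 and 34 nuclei met the rule, with a log2 ratio of 0.48 (-0.27 to 1.24). In the libraries labelled cortex, 8 of 17168 (0.0466%, 0.0201 to 0.0918) and 12 of 20370 nuclei (0.0589%, 0.0304 to 0.103) met the rule. The striatal share was therefore above the cortical one in both AAV groups, by 5.35 (4.36 to 6.57) and 5.37 (4.55 to 6.33) on the log2 scale.

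Among the chosen nuclei Slc17a6 summed to 1134 and 1523 UMIs, with a median of 2 and 3 UMIs per nucleus and a maximum of 12 and 21. Tcf7l2 summed to 2876 and 3576 UMIs, with a median of 5 and 7 and a maximum of 24 and 34. A single glial or endothelial UMI was present in 149 (33.1%) and 155 (36.5%) of the nuclei. After thinning, 44.99% and 48.6% of them held a Slc17a6 UMI, against 15.1% and 17.4% of oligodendrocyte nuclei, a type that should lack the gene. Thinning left out the nuclei below 1500 UMIs, which were 1 and 1 of the chosen nuclei, 53 and 16 of the other Slc17a6 neurons defined below and 516 and 227 of the oligodendrocytes. The unthinned median depths of those oligodendrocytes were 1896 and 2186.5 UMIs.

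Relay gene levels were higher in nuclei with more Tcf7l2 UMIs, with no step at the threshold of the rule. Synpo2, an actin-binding protein of thalamic relay neurons, was at 44.0 and 40.4 CPM in neurons that met the rest of the rule but held no Tcf7l2 UMI. It was at 206 and 179 CPM in those with 2 UMIs (118 and 100 nuclei, just outside the rule) and at 241 and 163 CPM in those with 3 UMIs (91 and 55 nuclei, just inside it). It reached 941 and 901 CPM in nuclei with 10 or more Tcf7l2 UMIs. Nuclei on either side of the threshold thus overlapped in Synpo2, with the inside group higher in AAV-CTRL and lower in AAV-VEGF-C. Lef1, the other TCF/LEF transcription factor of the thalamus, went from 69.8 and 63.9 CPM through 197 and 215 just outside and 173 and 166 just inside to 665 and 739. Slc17a6 itself stayed between 297 and 387 CPM and between 349 and 417 CPM over the whole range. Depth moved with the ladder, from a median of 4358 and 4957 UMIs at 0 Tcf7l2 UMIs to 10422.5 and 11384 at 10 or more, and its part in the gradient was not tested.

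**Figure D1:**
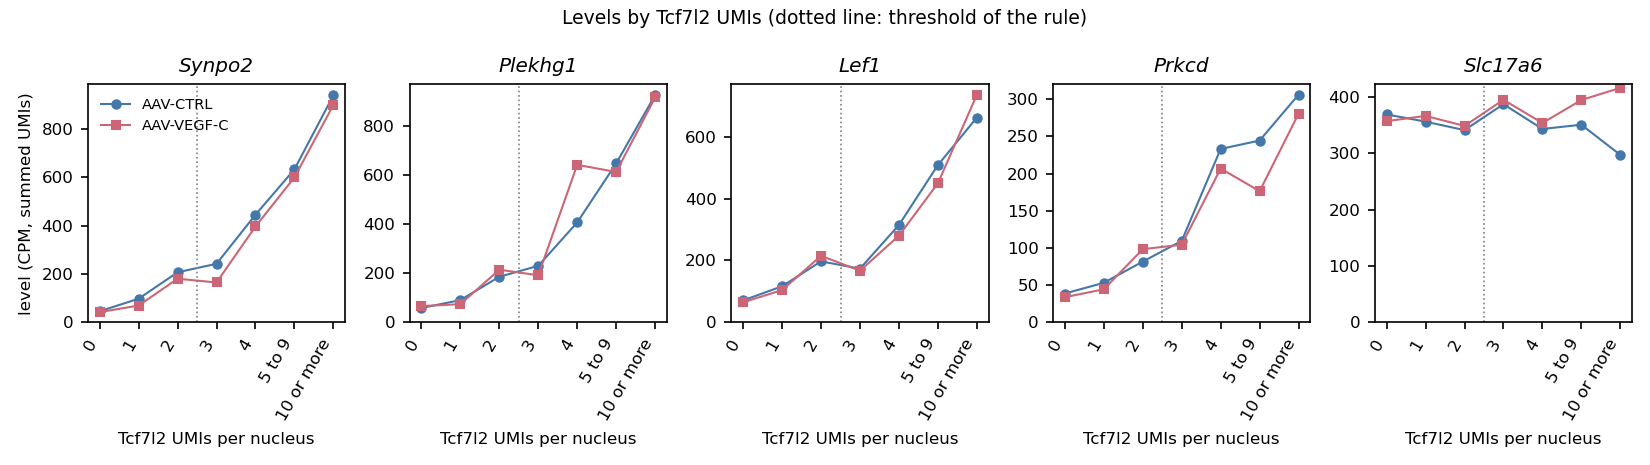
CPM of Synpo2, Plekhg1, Lef1, Prkcd and Slc17a6 (vertical axes) in Slc17a6 neurons of the libraries labelled striatum, grouped by Tcf7l2 UMIs (horizontal axes). Blue is AAV-CTRL, red is AAV-VEGF-C and the dotted line is the rule's threshold of 3 UMIs. Synpo2 runs from 44.0 and 40.4 CPM at 0 UMIs to 941 and 901 CPM at 10 or more, while Slc17a6 stays level.

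For comparison, other Slc17a6 neurons were nuclei that met the same rule with Tcf7l2 at 0 (507 and 353 nuclei), and Gad neurons held at least 2 UMIs of Gad1 plus Gad2 and none of Slc17a6 (1819 and 1346 nuclei). A gene was called when the chosen nuclei differed at least 2-fold from the comparison population in the same direction in both libraries. Since the rule separates these populations, the counts are descriptions. Over other Slc17a6 neurons, 285 of 12657 genes tested were called higher (2.25%) and 441 lower (3.48%). Over Gad neurons, 379 of 14638 genes were called higher (2.59%) and 702 lower (4.80%). Of the genes called higher, 234 were shared, which is 82.1% of the first list and 61.7% of the second. The median gene sat at -0.21 and -0.22 on the log2 scale over other Slc17a6 neurons, and centring on it turned the split from 285 higher and 441 lower into 412 higher and 247 lower.

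Relay genes stood higher as a group. Of 12 thalamic relay genes, 11 were called higher and 0 lower over other Slc17a6 neurons, with a median log2 ratio of 2.22 and 2.25, and 11 were called higher over Gad neurons. Synpo2 was at 619 (593 to 647) and 676 (650 to 703) CPM against 44.0 and 40.4 CPM, log2 ratios of 3.81 and 4.06. Plekhg1, a guanine nucleotide exchange factor of small GTPases, was at 615 and 709 CPM against 56.4 and 64.5. Ntng1, the axonal adhesion protein netrin-G1 of thalamocortical axons, was at 2694 and 3056 CPM against 520 and 625. Each of these sums was several-fold higher in both libraries, although single nuclei of the populations overlapped, as given below.

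The remaining relay genes covered signalling and RNA editing. Prkcd, protein kinase C delta, was at 237 and 217 CPM against 38.2 and 33.3. Ptpn3, a protein tyrosine phosphatase, was at 457 and 503 CPM against 72.4 and 75.4. Adarb1, an adenosine deaminase that edits glutamate receptor transcripts, was at 502 and 494 CPM against 171 and 145. The G-protein regulator Rgs16, the receptor partner Ramp3, the junction proteins Amotl1 and Patj and the peptide receptor Vipr2 were also called higher. The exception was Slc17a7, the cortical type of vesicular glutamate transporter, at 51.7 and 63.8 CPM against 69.8 and 39.9, with no common direction.

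Of 14 thalamic transcription factors, 7 were called higher and 0 lower, with a median log2 ratio of 1.03 and 1.15. Lef1 was at 469 and 537 CPM against 69.8 and 63.9, log2 ratios of 2.75 and 3.07, and it was the factor with the largest difference in this list. Rorb, an orphan nuclear receptor, was at 385 and 420 CPM against 117 and 155. Prox1 was at 99.2 and 117 CPM against 24.9 and 29.5, and Foxp2 at 371 and 390 CPM against 153 and 186. Shox2, Zic4 and Lhx9 were the other factors called higher. Rora, at 3051 and 3164 CPM against 1602 and 1723, fell short of the 2-fold call (0.93 and 0.88). Gbx2, an early thalamic factor, had few counts (20 and 42 UMIs) and no call, and Esrrg was lower than in other Slc17a6 neurons (258 and 209 CPM against 411 and 373) without a call.

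**Figure D2:**
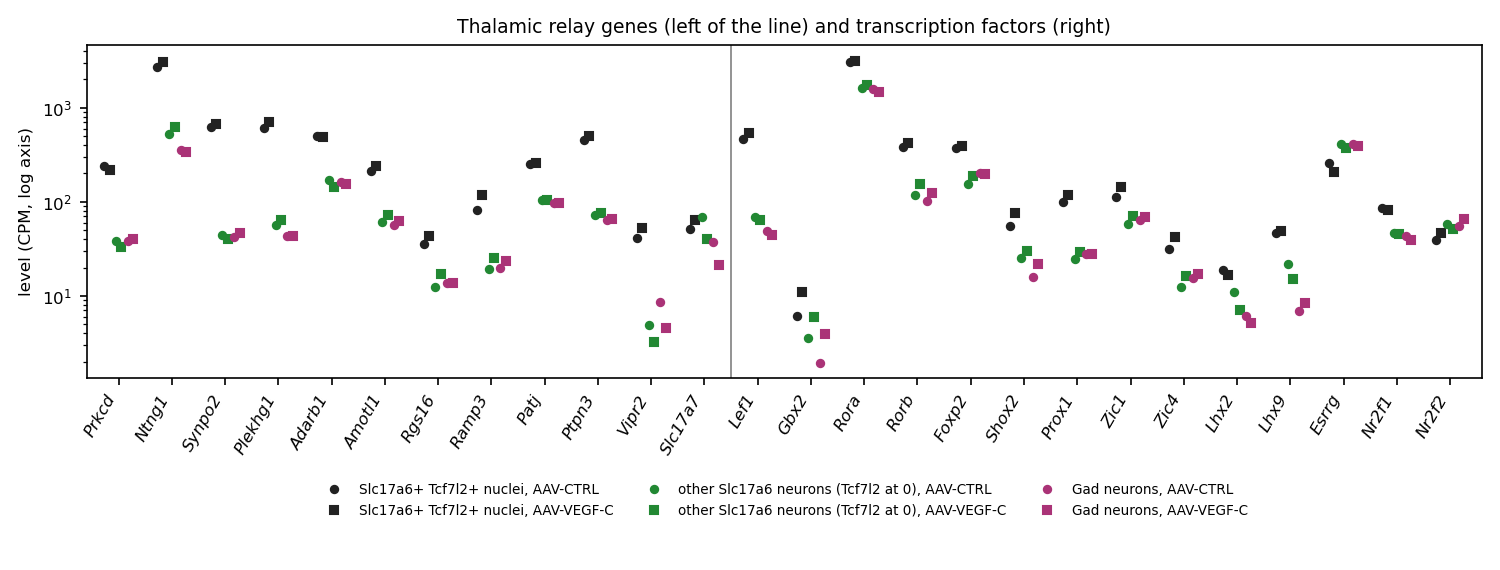
CPM on a log axis for 12 thalamic relay genes and 14 transcription factors in Slc17a6+ Tcf7l2+ nuclei (black), other Slc17a6 neurons (green) and Gad neurons (purple), with circles for AAV-CTRL and squares for AAV-VEGF-C. The black points lie at least 2-fold above the green ones in both libraries for 11 relay genes and 7 factors, and Slc17a7 and Esrrg do not.

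Detection in single nuclei showed the same genes at equal depth. In nuclei thinned to 1500 UMIs, Synpo2 was detected in 40.5% and 46.2% of the chosen nuclei (62.4% and 71.8% unthinned), in 7.49% and 5.93% of other Slc17a6 neurons and in 5.91% and 7.66% of oligodendrocytes. Lef1 was detected in 35.2% and 38.0% (59.6% and 64.7% unthinned), in 7.71% and 8.90% of other Slc17a6 neurons and in 6.31% and 5.78% of oligodendrocytes. The shares of both genes in other Slc17a6 neurons were thus near those of a type that should lack them. Plekhg1 was detected in 37.4% and 43.6% of the chosen nuclei but in 45.7% and 47.8% of oligodendrocytes, where its level was 430 and 450 CPM, so oligodendrocytes are no background for it. At full depth 111 (24.7%) and 72 (16.9%) of the chosen nuclei held no UMI of Lef1, Synpo2 or Plekhg1, and 41.2% and 33.7% held none after thinning. Of other Slc17a6 neurons 60.4% and 55.0% held none at full depth and 82.2% and 79.2% after thinning, so a UMI of these genes does not mark the chosen nuclei alone.

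The promoters of Synpo2 and Plekhg1, the relay genes with the largest ratios by the lower of their libraries, are shown because Tcf7l2 and Lef1 belong to a factor family that binds the letters CTTTGAT. Each sequence runs 5′ to 3′ on the strand of its gene from 250 bases before to 50 bases after the annotated start (RefSeq, GRCm38.p6). Synpo2 is on the minus strand at chr3:123236100-123236399 and Plekhg1 on the plus strand at chr10:3872417-3872716, at an internal start of the gene, which begins at 3740364. Nr2f2, on the minus strand at chr7:70366697-70366996, is added as the one listed factor with a match, which is in capitals.
Synpo2: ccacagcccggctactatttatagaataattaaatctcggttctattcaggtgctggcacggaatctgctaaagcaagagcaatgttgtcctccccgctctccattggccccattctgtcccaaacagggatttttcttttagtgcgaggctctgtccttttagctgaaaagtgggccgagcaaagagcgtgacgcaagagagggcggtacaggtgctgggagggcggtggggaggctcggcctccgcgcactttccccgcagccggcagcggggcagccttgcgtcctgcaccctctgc
Plekhg1: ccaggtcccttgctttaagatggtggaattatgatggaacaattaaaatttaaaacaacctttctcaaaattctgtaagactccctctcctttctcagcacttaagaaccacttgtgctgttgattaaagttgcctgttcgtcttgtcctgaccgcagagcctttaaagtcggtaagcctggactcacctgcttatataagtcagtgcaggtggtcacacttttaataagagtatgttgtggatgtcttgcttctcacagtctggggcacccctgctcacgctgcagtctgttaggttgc
Nr2f2: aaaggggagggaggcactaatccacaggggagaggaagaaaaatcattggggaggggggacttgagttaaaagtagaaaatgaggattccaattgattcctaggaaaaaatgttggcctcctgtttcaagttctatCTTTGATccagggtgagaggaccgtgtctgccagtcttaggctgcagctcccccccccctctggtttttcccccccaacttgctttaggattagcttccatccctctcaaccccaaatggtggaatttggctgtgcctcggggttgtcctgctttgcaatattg

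The letters CTTTGAT, searched on both strands, were present in 1225 of 32851 promoter windows of that length (3.73%). Counted by gene, they were in 292 of the 9556 matched genes tested over other Slc17a6 neurons (3.06%). The share was similar in the matched genes called higher, 6 of 203 (2.96%). They were in 0 of 12 relay genes and in 1 of the 13 matched transcription factors. A match is a description of the letters and not a site, and the absence of one in these 300 bases says nothing about the factors. Nr2f2 itself was at 39.6 and 46.1 CPM against 58.2 and 51.3 in other Slc17a6 neurons.

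Outside the fixed lists, the genes with the largest ratios over other Slc17a6 neurons included several predicted transcripts. Gm35696 had 128 and 149 UMIs in the chosen nuclei against 2 and 2, and Gm19303 had 57 and 121 UMIs against 0 and 1. Abhd12b, an alpha/beta hydrolase, was at 91.7 and 90.1 CPM against 2.22 and 5.46. C6, a complement component, had 34 and 58 UMIs against 0 and 1. Trpm6, a magnesium channel, was at 39.3 and 47.4 CPM against 2.22 and 4.92, and Scube2, a secreted hedgehog carrier, at 46.3 and 40.3 CPM against 4.44 and 3.28. Over Gad neurons Fam19a4, a secreted peptide, was at 88.0 and 97.48 CPM against 6.73 and 9.33.

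Of the listed genes of hypothalamus and subthalamus, cortex and striatum some were called lower and none was called higher. Among all genes tested, 3.48% were called lower over other Slc17a6 neurons and 4.80% over Gad neurons. Of 8 tested genes of the hypothalamus and subthalamus, 6 were called lower over other Slc17a6 neurons and 3 of 8 over Gad neurons. The list summed to 77.7 and 163 CPM in the chosen nuclei and 376 and 611 CPM in other Slc17a6 neurons. It summed to 421 and 315 CPM in oligodendrocytes, a type that should lack these genes. The part of RNA from other cells in these calls was not tested. Sim1, a hypothalamic transcription factor, was at 0.907 and 2.11 CPM against 27.6 and 30.6, and Avp, the vasopressin precursor, at 13.3 and 14.2 CPM against 97.8 and 226. Of 5 tested cortical excitatory genes 4 were called lower over other Slc17a6 neurons, and 4 of 7 over Gad neurons, among them Neurod2, and Cux2 at 165 and 185 CPM against 110 and 107 was not. Of the striatal projection genes 2 of 9 were called lower over other Slc17a6 neurons and 7 of 10 over Gad neurons, with Drd1 at 1.51 and 3.95 CPM against 21.1 and 21.0 in the latter. The summed level of that striatal list was nevertheless 1316 and 1315 CPM, of which the phosphodiesterase Pde10a made up 87.9% and 88.2%. Hindbrain genes were near their floor, with 5 and 5 UMIs over 8 genes, of which 3 were at 0 in both libraries.

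Transcripts of other cell types were checked as lists. Oligodendrocyte transcripts other than the rule's genes summed to 732 and 711 CPM in the chosen nuclei, 1237 and 1142 CPM in other Slc17a6 neurons and 21944 and 22782 CPM in oligodendrocytes. Astrocyte transcripts summed to 1111 and 1116 CPM against 1200 and 1094 CPM in other Slc17a6 neurons. Microglial transcripts summed to 90.4 and 111 CPM and endothelial ones to 45.1 and 28.2 CPM. Mitochondrial transcripts took 0.406% and 0.668% of UMIs in the chosen nuclei, below 0.639% and 0.935% in other Slc17a6 neurons.

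Among 18 calcium, HCN and potassium channel genes, 3 were called higher and 1 lower over other Slc17a6 neurons, with a median log2 ratio of -0.07 and -0.08. Of all genes tested there, 2.25% were called higher and 3.48% lower. Kcnc2, the Kv3.2 channel of fast-firing neurons, was at 1791 and 1819 CPM against 457 and 480, log2 ratios of 1.97 and 1.92. Kcnq3, a subunit of the M-current, was at 1346 and 1371 CPM against 508 and 482. Hcn4, the slow pacemaker channel, was at 26.6 and 34.0 CPM against 11.6 and 13.7. The T-type calcium channels were split. Cacna1g, the T-type channel of relay neurons, was at 139 and 169 CPM against 70.2 and 73.7 (0.98 and 1.19), which reached 2-fold in the AAV-VEGF-C library alone. Cacna1h was called lower at 11.8 and 8.96 CPM against 28.9 and 27.3, and Cacna1i, the type of reticular thalamic neurons, was at 30.6 and 23.7 CPM against 56.9 and 58.4.

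Receptors for glutamate and GABA differed in a few named subunits, where 2.25% of all genes tested over other Slc17a6 neurons were called higher. Of 17 ionotropic glutamate receptor genes, 1 was called higher, namely Grin2c, an NMDA receptor subunit, at 45.4 and 46.6 CPM against 8.00 and 10.4. Of the metabotropic receptors Grm4, a presynaptic receptor, was called higher at 136 and 169 CPM against 47.1 and 53.0. Of 12 GABA-A subunits 2 were called higher, Gabra4 at 396 and 421 CPM against 77.8 and 66.1 and Gabrd at 80.5 and 87.7 CPM against 15.6 and 13.7. These alpha-4 and delta subunits together form the extrasynaptic receptors that give relay neurons their tonic inhibition.

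Of 21 modulator receptors tested over other Slc17a6 neurons, 1 was called higher and 4 lower, with a median log2 ratio of -0.14 and 0.08. Among all genes tested there, 2.25% were called higher and 3.48% lower. Adra1b, an alpha-1 adrenergic receptor, was at 88.9 and 125 CPM against 20.9 and 25.1. Those called lower were Htr2a, Adra1a, the orexin receptor Hcrtr2 and the cannabinoid receptor Cnr1, the last at 25.1 and 20.8 CPM against 61.8 and 59.0. In the Wnt pathway, where Tcf7l2 acts, 1 of 20 tested genes was called higher, too few to set the list apart from all genes tested. That gene was the ligand Wnt3, at 28.7 and 30.6 CPM against 4.44 and 8.19. Axin2, a target gene of the pathway, was at 25.4 and 24.0 CPM against 19.1 and 20.2, and Ctnnb1, which encodes beta-catenin, at 115 and 130 CPM against 112 and 113, so neither differed 2-fold.

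**Figure D3:**
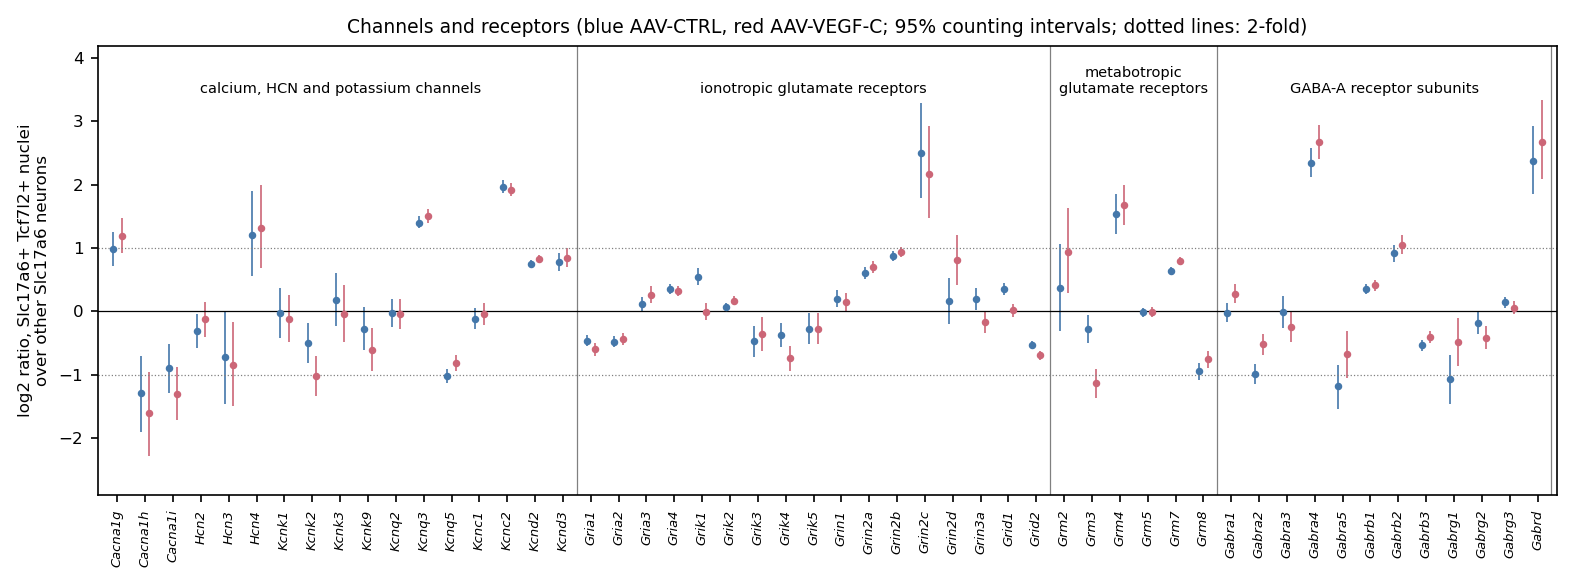
Log2 ratio of CPM in Slc17a6+ Tcf7l2+ nuclei over other Slc17a6 neurons for listed channel, glutamate receptor and GABA-A receptor genes, with 1 point per library, 95% counting intervals as bars and dotted lines at 2-fold. Gabra4 (2.35 and 2.67) and Gabrd (2.37 and 2.68) stand highest among the GABA-A subunits, and Cacna1h (-1.29 and -1.61) lies below the lower line.

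The nuclei were then clustered without the rule's genes to describe how they varied, which gave 10 clusters of 28 to 235 nuclei. The genes that lead a cluster also built it and are given as a description. Relay genes were not kept out of the clustering, and the clusters were grouped after their levels were seen. Relay gene levels by cluster are therefore descriptions too. Clusters 2 to 7 (545 nuclei, with medians of 7976.5 and 9583 UMIs) held the relay genes and are called thalamic neuron-like. In them Synpo2 was at 882 and 869 CPM, Plekhg1 at 869 and 901, Lef1 at 665 and 663, and Ntng1 at 3626 and 3748. In clusters 1, 8 and 10 (300 nuclei, with medians of 5492 and 6023 UMIs) Synpo2 was at 49.7 and 44.7 CPM and Plekhg1 at 47.7 and 48.4, close to the level of other Slc17a6 neurons. Leaving out clusters 1, 8, 9 and 10, an alternative chosen after seeing the data, raised the genes called lower over other Slc17a6 neurons from 441 to 981.

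Within the thalamic neuron-like clusters the relay genes were unequal. Cluster 4 (104 nuclei) was highest in Lef1 at 1030 CPM, Plekhg1 at 1347 and Prkcd at 615, and was led by Tspan11 and by the carbonic anhydrase Car4 at 102 CPM against 12.9 in the other nuclei. Cluster 2 (185 nuclei) was led by Tnc, Usp43 and Abhd12b, with Abhd12b at 200 CPM. Cluster 3 (123 nuclei) was led by Snx31 and the dopamine receptor Drd3 at 36.2 CPM against 3.18, and carried the calcium-binding protein Necab1 at 633 CPM, whereas cluster 4 had Necab1 at 18.6 CPM.

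The smaller thalamic neuron-like clusters were led by secreted, receptor and channel genes among others. Cluster 5 (48 nuclei) was led by the oxidase Nox4, of which 1 nucleus held 29.4% of the UMIs, and by the vascular ligand Angpt1 at 135 CPM. Cluster 6 (47 nuclei) had the neuropeptide S receptor Npsr1 at 258 CPM against 22.1 in the other nuclei, and the synapse organiser Cbln1 at 107 and 174 CPM in the libraries, which was at 106 and 325 CPM in cluster 7. Cluster 7 (38 nuclei) had Lypd6b at 631 CPM against 20.1, Cbln4 at 238 against 11.46 and the serotonin receptor Htr1f at 457 against 32.3. That cluster was also highest in Foxp2 at 1088 CPM and lowest of clusters 2 to 7 in Ntng1 at 933 CPM.

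Clusters 1, 8, 9 and 10 were led by other genes. Cluster 10 (28 nuclei) is called medial habenula-like, with Nwd2 at 6185 CPM against 61.4 in the other nuclei, the tachykinin precursor Tac2 at 418 CPM and the nicotinic receptor subunits Chrnb4, Chrna3 and Chrnb3 at 167, 160 and 122 CPM. Cluster 1 (235 nuclei) was led by the transcription factors Ebf2 and Ebf3 at 81.3 and 107 CPM and is left unnamed, as its leading list also held genes such as Prg4 with 90.9% of the UMIs in 1 nucleus. Cluster 8 (37 nuclei) had the factors Bcl11b at 338 and Tfap2d at 215 CPM and is unnamed. Cluster 9 (30 nuclei, of which 14 were called doublets) was led by astrocyte genes, with Slc1a3 at 370 and Gja1 at 209 CPM, beside Synpo2 at 468 and Lef1 at 509 CPM, and is unnamed.

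**Figure D4:**
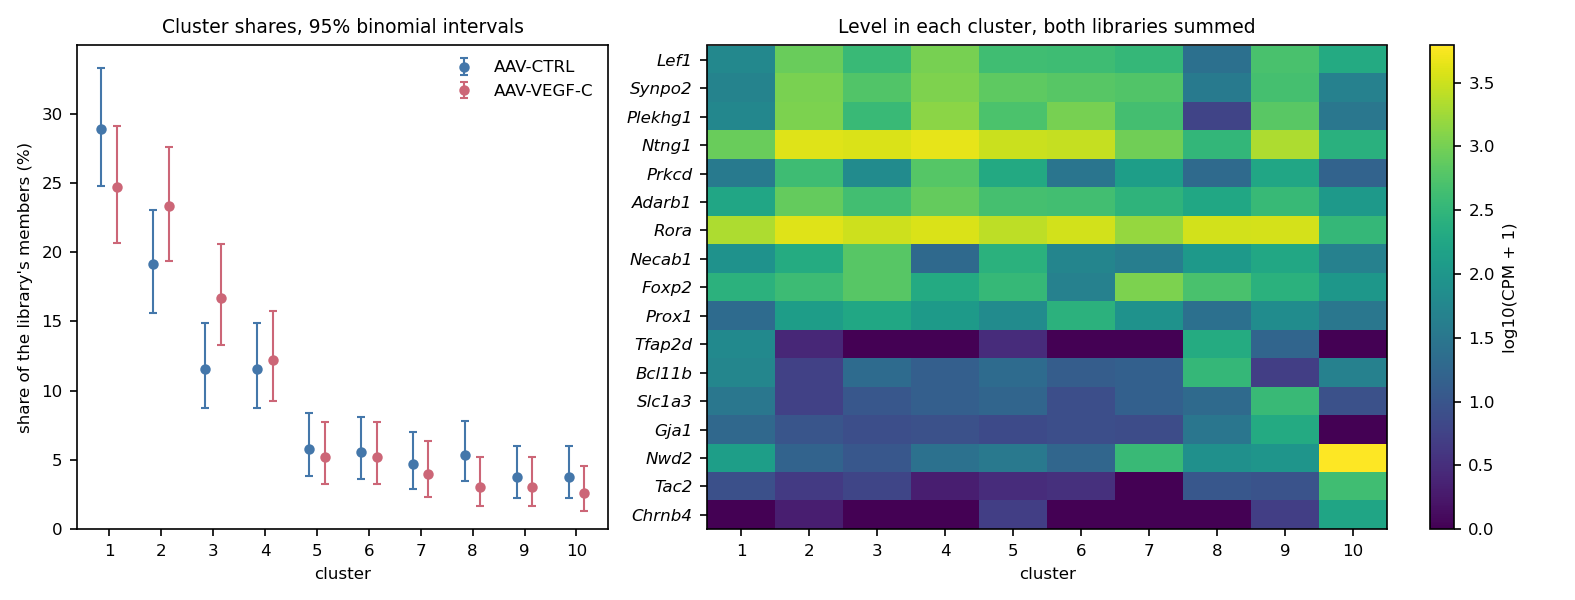
Left, the percent of each library's Slc17a6+ Tcf7l2+ nuclei in 10 clusters with 95% binomial intervals (blue AAV-CTRL, red AAV-VEGF-C), and right, log10(CPM + 1) of 17 genes by cluster as a colour scale. Synpo2, Plekhg1 and Lef1 are high in clusters 2 to 7, Nwd2 and Tac2 in cluster 10, and Slc1a3 and Gja1 in cluster 9.

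The thalamic neuron-like clusters held 262 of 450 nuclei (58.2%, 53.5 to 62.8) in AAV-CTRL and 283 of 425 (66.6%, 61.9 to 71.1) in AAV-VEGF-C. The share was higher in the AAV-VEGF-C library, but the intervals overlap and depth was higher there too. For each cluster alone the interval of the ratio between libraries included 0 on the log2 scale. Cluster 3 held 11.6% and 16.7% of nuclei (0.53, -0.0047 to 1.08), cluster 8 held 5.33% and 3.06% (-0.80, -1.90 to 0.23) and cluster 10 held 3.78% and 2.59% (-0.55, -1.79 to 0.63).

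Detection of genes known to grade across thalamic nuclei depended on depth. After thinning, Necab1 was found in 18.7% and 22.4% of nuclei (42.4% and 47.5% unthinned) against 6.80% and 7.93% of oligodendrocytes. Tnnt1, a troponin of first-order nuclei, was found in 2.90% and 4.01% (10.9% and 17.9% unthinned). Calb2, calretinin, was found in 7.35% and 8.25% (29.6% and 36.0% unthinned), which is not above the oligodendrocyte share of 12.9% and 16.8% and is not read as expression. None of the 3 genes was detected in 72.2% and 68.6% of thinned nuclei, and in 36.2% and 28.9% of nuclei at full depth.

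None of the 12 genes that varied most among the nuclei at 1500 UMIs was a relay gene. The relay gene Ntng1 ranked 37 and 40 of 4961, with a variance over mean of 2.98 and 2.64. Over 4961 genes the median variance over mean was 1.04 in both libraries, close to that of counting alone. Kcnip4, a subunit of A-type potassium channels, had 16.1 and 12.2, Nwd2 had 9.14 and 8.68, the cation channel Trpm3 11.2 and 6.27, and the calcium-activated potassium channel Kcnma1 6.41 and 6.39. Leaving called doublets out kept 11 of the leading 12 genes.

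Between AAV groups few genes of these nuclei differed 2-fold. Of 8658 genes with at least 100 UMIs, 6 were at least 2-fold higher in AAV-VEGF-C (0.0693%) and 5 at least 2-fold lower (0.0578%). The median gene was at 0.01 on the log2 scale and the middle 95% of genes lay between -0.47 and 0.54. Intervals lay above 0 for 886 genes and below 0 for 688. After thinning no gene among 2664 tested reached 2-fold in either direction.

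Of the 6 higher genes, 4 had between 33.3% and 74.7% of their AAV-VEGF-C UMIs in a single nucleus. Oxt, the oxytocin precursor, had 66 UMIs in AAV-CTRL and 367 in AAV-VEGF-C (2.28, 1.89 to 2.68), but 274 of the 367 (74.7%) were in 1 nucleus of cluster 1. Without the nucleus with most UMIs in each library, an alternative chosen after seeing the data, its ratio was 0.37 (-0.11 to 0.85). Mgp, matrix Gla protein of vessel and meningeal cells, went from 36 to 179 UMIs with 131 (73.2%) in 1 nucleus, and its ratio was 0.63 (-0.07 to 1.37) without it. Ptgds, a prostaglandin synthase of meninges and oligodendrocytes, went from 440 to 1234 UMIs with 699 (56.6%) in 1 nucleus, and Adamtsl3 from 41 to 111 UMIs with 37 (33.3%) in 1 nucleus. The ratio without that nucleus was 0.17 for Ptgds and 0.88 for Adamtsl3, so both were below 2-fold.

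The other 2 higher genes were spread over nuclei. Gm19951, a predicted gene, had 47 and 140 UMIs (14.2 and 36.9 CPM; 1.38, 0.89 to 1.88), found in 46 (10.2%) and 120 (28.2%) nuclei. It was as much higher outside these nuclei, at 1.08 in other Slc17a6 neurons, 1.23 in Gad neurons, 1.33 in oligodendrocytes and 1.16 in all other nuclei of the striatal libraries. Cbln1, a synapse organiser of the C1q family, had 58 and 142 UMIs (1.09, 0.64 to 1.56), found in 43 and 70 nuclei. It was at 1.05 within clusters 2 to 7, 0.66 (0.10 to 1.23) in other Slc17a6 neurons, 0.26 in all other nuclei and -0.11 when the chosen nuclei were thinned.

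The 5 lower genes had most of their UMIs outside the thalamic neuron-like clusters in both libraries. Syt6, a synaptotagmin, had 150 and 63 UMIs (-1.45, -1.90 to -1.02), found in 63 and 34 nuclei, with 16 and 6 of those UMIs in clusters 2 to 7. L3mbtl4 had 143 and 65 UMIs (-1.34) with 12 and 5 in clusters 2 to 7, and D130079A08Rik 107 and 52 UMIs (-1.24) with 2 and 4 there. Plce1, a phospholipase C, had 93 and 46 UMIs (-1.21, -1.76 to -0.69) and kept a ratio of -1.42 in clusters 2 to 7, and Pde11a, a phosphodiesterase, had 75 and 35 UMIs (-1.30) with 14 and 4 there. Within clusters 1, 8 and 10, which held 38.0% and 30.4% of the nuclei, the ratio was -0.96 (-1.44 to -0.50) for Syt6 and -0.90 (-1.37 to -0.44) for L3mbtl4. It was -0.90 (-1.43 to -0.38) for D130079A08Rik, -0.77 (-1.45 to -0.12) for Pde11a and -0.53 (-1.38 to 0.29) for Plce1. Without the nuclei carrying at least 2 UMIs of medial habenula genes, Syt6 was at -0.99 and Pde11a at -0.57, both short of 2-fold. D130079A08Rik was then at -1.57 with fewer than 100 UMIs, while L3mbtl4 (-1.48) and Plce1 (-1.02) stayed past 2-fold.

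**Figure D5:**
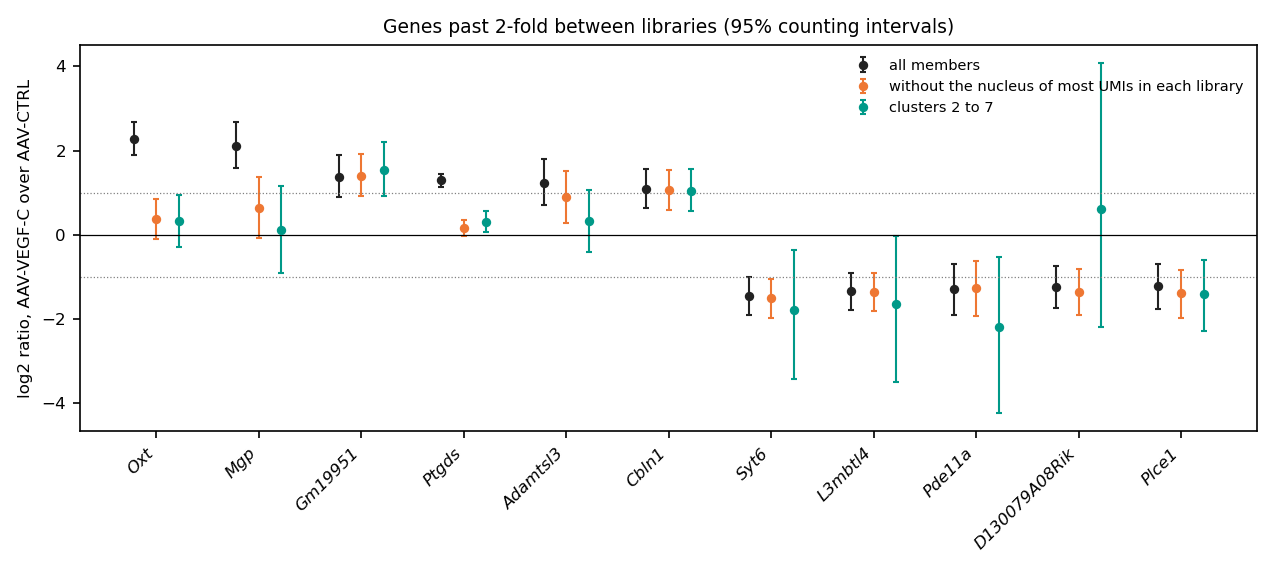
Log2 ratio of AAV-VEGF-C over AAV-CTRL for the 11 genes that differed at least 2-fold, in all Slc17a6+ Tcf7l2+ nuclei (black), without the nucleus with most UMIs in each library (orange) and in clusters 2 to 7 (green), with 95% counting intervals. Oxt drops from 2.28 to 0.37 and Mgp from 2.11 to 0.63, while Gm19951 stays above 1 in all 3 sets.

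When only clusters 2 to 7 were kept, again chosen after seeing the data, 14 genes were higher and 5 lower of 7038 tested. Among the 14 were Gm19951 (1.53), Cbln1 (1.05) and 6 mitochondrially encoded genes, such as mt-Co1 (1.08), mt-Nd4 (1.01) and mt-Atp8 (1.28), whose products belong to the respiratory chain. The share of mitochondrial UMIs went from 0.406% to 0.668% in the Slc17a6+ Tcf7l2+ nuclei, and it was also higher in AAV-VEGF-C, by smaller ratios, in Gad neurons (0.703% and 1.03%) and in all nuclei of the libraries (0.909% and 1.12%). Its part in these values was not tested. The 5 lower genes, named after their values were seen, were Gm28928 (-1.73), Zeb2 (-1.25), Slit2 (-1.23), Ephb1 (-1.22) and Meis2 (-1.03). Slit2 and Ephb1 act in axon guidance, and Zeb2 and Meis2 are transcription factors.

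The relay genes differed little between AAV groups. None of 12 reached 2-fold, but only 0.0693% of all 8658 genes did so upward and 0.0578% downward, so this count says little about them. The relay genes summed to 5799 and 6425 CPM, a log2 ratio of 0.15 (0.12 to 0.18). Ntng1 made up 46.5% and 47.6% of that sum. Of the 12 genes 8 had intervals above 0 and 0 below. Within clusters 2 to 7 Synpo2 was at -0.02 and Prkcd at -0.27 (-0.42 to -0.13). None of 13 tested transcription factors reached 2-fold, which says as little, and 7 had intervals above 0 and 1 below. The sum of the listed factors had a ratio of 0.08 (0.05 to 0.11), and Rora made up 60.6% and 59.6% of it. Of the 12 modulator receptors tested, 6 had intervals above 0, 1 had an interval below 0 and none was called, beside 886 above and 688 below among all 8658 genes. The one below was the muscarinic receptor Chrm3 (-0.19, -0.29 to -0.08). Oprm1, the mu opioid receptor, was at 88.3 and 134 CPM (0.60, 0.39 to 0.81), against 0.18 in all other nuclei, and was at 0.57 (0.33 to 0.81) in clusters 2 to 7. Chrna4 and Chrnb2, which together form a nicotinic receptor, had ratios of 0.67 (0.37 to 0.97) and 0.69 (0.29 to 1.10). Of 17 ionotropic glutamate receptor genes 10 had intervals below 0 and 2 above, Grin2b (0.08) and Grin2d (0.33), and the sum of the 17 had a ratio of -0.10 (-0.12 to -0.08).

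Of the VEGF ligands and receptors, 5 had enough UMIs and none was called, beside 6 called higher and 5 lower among all 8658 genes. Vegfc had 45 and 70 UMIs (13.6 and 18.4 CPM; 0.44, -0.12 to 1.01), so a difference in either direction was not resolved at this depth. Vegfa was at 24.2 and 24.0 CPM. The neuropilins, which bind VEGF and semaphorins, were lower in AAV-VEGF-C, Nrp1 at 72.9 and 50.1 CPM (-0.54, -0.82 to -0.26) and Nrp2 at 70.2 and 46.1 CPM (-0.61, -0.90 to -0.32). In clusters 2 to 7 the ratio was -0.80 (-1.19 to -0.41) for Nrp1 and -0.28 (-0.79 to 0.24) for Nrp2. Flt4, which encodes the VEGF-C receptor VEGFR3, had 13 and 4 UMIs, of which 10 and 0 were in clusters 2 to 7. Flt1, which encodes VEGFR1 and is an endothelial marker, had 43 and 21 UMIs (-1.23, -2.06 to -0.45), and Kdr, which encodes VEGFR2, 11 and 7, all below the 100 UMIs needed for a call. The endothelial list, 6 genes that include Flt1, was lower too, with sums of 45.1 and 28.2 CPM (-0.68, -1.05 to -0.31). In clusters 2 to 7 the ratio was -3.78 (-6.91 to -1.74) for Slco1a4, -1.61 (-3.27 to -0.14) for Ly6c1 and -1.51 (-2.47 to -0.62) for Flt1. It was -1.30 (-2.65 to -0.06) for Ptprb, -0.38 (-1.67 to 0.90) for Pecam1 and -0.21 (-1.76 to 1.36) for Abcb1a. Counts there were low, with 21 and 2 UMIs for Slco1a4, 12 and 12 for Pecam1 and 8 and 9 for Abcb1a. No gene of the list had 0 UMIs there. The part of endothelial RNA in the lower Nrp1, Flt1 and Flt4 was not tested. Among immediate early genes, which follow neuronal activity, none of 3 tested was called and Egr1 had 89 and 112 UMIs (0.13).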

How the data were processed

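Nuclei from frozen, pulverised tissue were captured with the 10x Chromium 3′ v3 kit. The authors deposited 1 matrix of UMI counts per library, 4 in all, with 31053 genes and no normalization. The file headers name Cell Ranger 5.0.1 and the submitters' processing notes name Cell Ranger 5.1.1 and mm10. Whether intronic reads were counted is not given in the sources used here. The 78728 deposited barcodes equal the number of nuclei the study kept after its own removal of low-quality clusters and doublets. No column of per-sample values was left unused.

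UMI counts were summed over nuclei per library and scaled to CPM, with exact Poisson intervals, exact binomial intervals for shares and exact conditional binomial intervals for ratios. With 1 library per group no test was made, and a call means at least 2-fold, for genes with at least 20 UMIs over both populations in each library or at least 100 UMIs over both libraries in the AAV comparison. The 10 genes of the rule were left out of all counts of calls. Values compared at equal depth came from nuclei thinned to 1500 UMIs (shallower nuclei left out). All deposited barcodes were used; doublets were called per library with Scrublet in scanpy 1.11.5 (expected rate 8%) and left out as an alternative. Clusters came from 2000 variable genes, 30 principal components, 15 neighbours and Leiden (leidenalg 0.10.2) at resolution 0.6; a cluster got a name only from at least 3 of the listed markers of that type. Other steps used Python 3.11.15, numpy 2.4.6, scipy 1.17.1, pandas 2.3.3 and matplotlib 3.10.9, and the ratio script was tested on simulated data.

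Genes named are those of 23 gene lists, the 15 highest and 10 lowest called genes per population comparison, up to 15 AAV calls in each direction, the 12 most variable genes and the 8 leading genes of each cluster. The nuclei, gene lists and alternatives were chosen with earlier results of these data known. Other thresholds of the rule, minimum counts, scalings and subsets were tried as alternatives. Promoter sequences are those of RefSeq on GRCm38.p6, matched by symbol. A few listed genes are not reported here.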

Additional observations from a re-analysis of the deposited data

Results flagged for a closer look

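Oxt and Adamtsl3 went in opposite directions in the Slc17a6+ Tcf7l2+ nuclei and in all other nuclei of the striatal libraries. The log2 ratio of AAV-VEGF-C over AAV-CTRL for Oxt was 2.28 in the former and -0.67 in the latter, and 274 of the 367 Oxt UMIs were in 1 nucleus. Without the nucleus with most UMIs in each library the ratio of Oxt was 0.37 (-0.11 to 0.85). Oligodendrocytes, which should lack Oxt, held 1601 and 593 UMIs of it, a ratio of -1.52. For Adamtsl3 the ratio was 1.24 against -0.14, with 37 of 111 UMIs in 1 nucleus, and 0.88 (0.29 to 1.51) without the nucleus with most UMIs in each library. These differences were not tested.

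Nuclei that met the rule were also present in the libraries labelled cortex, 8 in AAV-CTRL and 12 in AAV-VEGF-C, above the 3 counts that a count of 0 allows. Their shares were compared with the striatal ones, and their gene levels were not compared.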

How the results depend on the processing

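With 1 library per group there was no replicate to leave out, and the mouse pools, depth and AAV group cannot be told apart. No paired analysis was possible because each AAV group has 1 library per tissue. Of 703 alternative values, 49 that answer a comparison and 584 of single genes kept their direction and moved by less than their counting interval, or by less than 1.5 times for counts of genes, and 29 and 37 moved by more. The log2 ratio of the share of nuclei was 0.66 with at least 5 Tcf7l2 UMIs. Over other Slc17a6 neurons, genes called lower numbered 293 with at least 2 Tcf7l2 UMIs, 981 without clusters 1, 8, 9 and 10, 247 with median-ratio scaling and 259 with a minimum of 50 UMIs, and with no minimum 881 were higher and 1681 lower. Over Gad neurons, 1602 were lower without those clusters and 464 with median-ratio scaling, where 512 were higher against 379 as reported, and with no minimum 793 were higher and 2346 lower. Genes at least 2-fold higher in AAV-VEGF-C numbered 11 with at least 2 Tcf7l2 UMIs, 10 without nuclei carrying habenula genes, 14 without those clusters, 36 with a minimum of 50 UMIs, 3 without the nucleus with most UMIs and 0 after thinning. Genes lower numbered 9 with at least 2 and 3 with at least 5 Tcf7l2 UMIs, 8 with no glial or endothelial UMI, 24 and 2 with a minimum of 50 and 200 UMIs and 0 after thinning, which left 2664 genes to test. Mgp (-0.62) and Adamtsl3 (-0.11) turned negative with no glial or endothelial UMI, D130079A08Rik (0.62) turned positive without those clusters, and Cbln1 (-0.11) turned negative after thinning. The cause of these changes was not tested. Without thinning, Tnnt1, Necab1 and Calb2 were detected in 10.9%, 42.4% and 29.6% of AAV-CTRL and 17.9%, 47.5% and 36.0% of AAV-VEGF-C nuclei. The number of clusters was 7 at resolution 0.3 and 15 at 1.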

Other observations

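Genes of other regions and of transmitters were also measured in the Slc17a6+ Tcf7l2+ nuclei. At least 2 UMIs of the medial habenula list were present in 72 of 450 AAV-CTRL nuclei (16.0%, 12.7 to 19.7) and 44 of 425 AAV-VEGF-C nuclei (10.4%, 7.62 to 13.6), and 85.6% and 80.3% of the list's UMIs were Nwd2. Over Gad neurons 1 of 5 tested habenula genes was called higher, beside 2.59% of all genes tested there. No habenula gene of 4 tested was called over other Slc17a6 neurons, where Nwd2 was at 85.3 and 87.4 CPM against 221 and 134 in the chosen nuclei. Of 3 tested genes of midbrain, tectum and pretectum 1 was called lower, the factor Lmx1b, with 8 and 6 UMIs against 26 and 28. Of the vesicular transporters Slc32a1, which loads GABA, was called lower at 21.2 and 19.0 CPM against 54.7 and 53.0, and Slc18a2, which loads monoamines, was at 20.9 and 18.7 CPM without a call. Calb1, calbindin, was at 75.02 and 73.8 CPM against 58.2 and 60.6, and Ntrk2, the BDNF receptor, at 572 and 595 CPM against 503 and 516, with neither called. None of 9 immediate early genes tested over other Slc17a6 neurons was called, beside 2.25% called higher and 3.48% lower among all genes tested there.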
